A study of Mus musculus with 8 samples.

Results

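Cluster 1 was 1 of 12 groups of cells found among cultured preadipocytes and differentiating fat cells of the mouse, and the genes taken as its markers are Cxcl14, Mmp3 and F3. Its members were the 729 genes that the deposited marker table lists under cluster number 1, out of 13337 entries for 3903 gene symbols in all 12 clusters. The cells came from inguinal white adipose tissue of C57BL/6 mice, either wild type (WT) or lacking HMGN1 and HMGN2 (DKO, genotype Hmgn1-/- and Hmgn2-/-), 2 proteins that bind nucleosomes. They were cultured on collagen and captured as single cells at day 0, before differentiation, and 6 days after its start. The differentiation cocktail held insulin, dexamethasone, IBMX, T3 and rosiglitazone. Per the study's methods it was replaced before day 6 by a maintenance medium with insulin and T3 only. There were 2 samples per genotype and day and 8 in all. The table pools the 8 samples and names none of them, so no value below has a replicate, and neither DKO with WT nor day 6 with day 0 could be compared. By the study's methods for preadipocyte culture, the mice were 8 to 12 weeks old, and the cells are cultured cells, not fresh tissue.

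Preadipocytes are the fibroblast-like precursors from which fat cells form. They lie in the stroma of the fat pad, where they make collagen and other matrix, remodel it with secreted proteases, and release chemokines that attract immune cells. When they differentiate, genes for fatty acid uptake and fat storage are switched on and many stromal genes are switched off. F3 encodes tissue factor, also called CD142, which starts blood clotting and marks a set of stromal cells in fat that is known to restrain the formation of fat cells. Cxcl14 encodes a chemokine and Mmp3 the protease stromelysin-1, which degrades matrix proteins other than fibrillar collagen.

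The measure used was detection, the share of cells in which at least 1 transcript of a gene was counted. The authors gave it inside the cluster and for all other cells, and the gap between these shares is in percentage points. A gene was counted as higher or lower when the shares differed by at least 10 percentage points. No test was made, because the cells were sorted into clusters by these same genes and the cells of 8 samples are not replicates. By detection cluster 1 held 14.1% of all cells, solved from the requirement that a gene's detection over all cells come out equal from every cluster. The numbers of cells and of reads behind the shares are unknown, and so is the depth per cell in each cluster.

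Most genes listed for cluster 1 were detected in more of its cells than elsewhere. Of the 729 genes, 429 were higher, which is 58.8% of them, 153 were lower, which is 21.0%, and 147 lay within 10 percentage points. The median difference over all 729 genes was 16.0 percentage points. The higher genes had a median detection of 80.8% in cluster 1 against 53.7% elsewhere. For the lower genes these medians were 10.2% and 27.7%. The differences ran from 58.2 percentage points down to -33.2, and 17 genes exceeded 40. Close to the threshold, the smallest difference counted as higher was 10.2 and the largest not counted was 9.8, while for lower genes these were -10 and -9.7. For 46 genes detection outside the cluster was at least 90%, so they had no room to be higher, and 0 of them were.

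**Figure D1:**
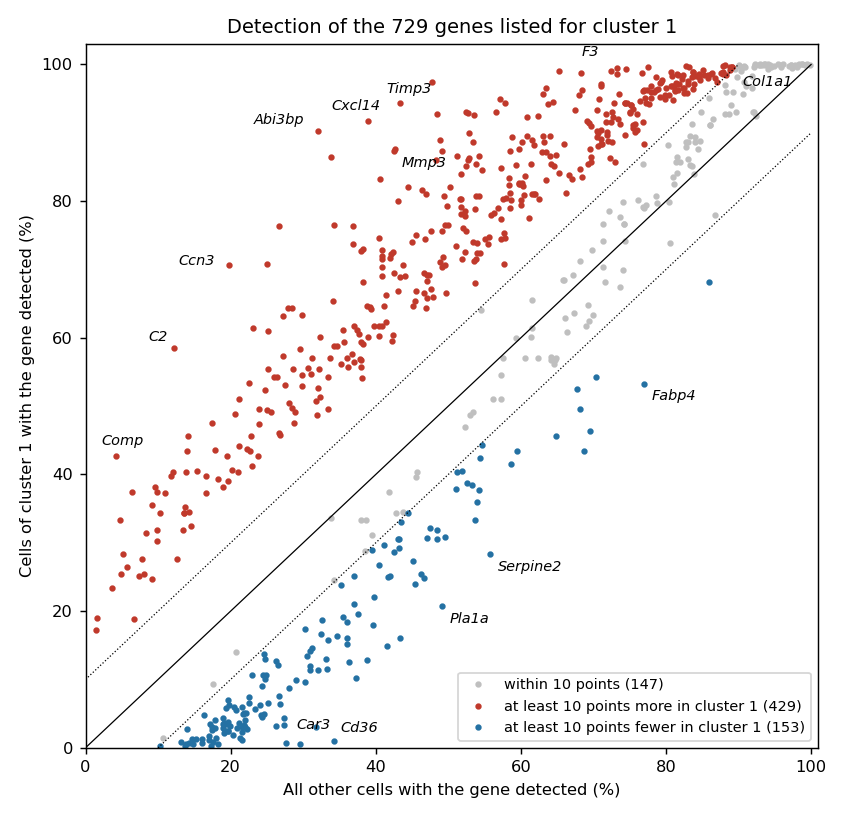
Each point is 1 of the 729 genes listed for cluster 1, placed by the percent of all other cells (horizontal) and of cluster 1 cells (vertical) in which it was detected. The solid line marks equal detection and the dotted lines a difference of 10 percentage points, with 429 genes above the upper line, 153 on or below the lower one and 147 between.

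The reference of all other cells includes 2 clusters with low detection for most of their entries. In cluster 4, with 9.59% of the cells, the median difference over its own entries was -47.2 percentage points. In cluster 10, with 3.22%, it was -48.3. Of the 2068 entries of cluster 4, 17 were higher by at least 10 percentage points. Among them were the fat cell genes Scd1, detected in 97.7% of its cells, and Cd36, in 69.0%. Of the 729 genes, 539 had an entry in cluster 4 and 248 in cluster 10, so their detection there could be taken out of the reference. Of the 429 higher genes, 373 had such an entry, 99 of them in both clusters and 274 in 1. After the removal 278 of the 373 stayed higher by at least 10 percentage points, their median difference went from 21.9 to 16.0, and 0 turned to lower detection than the reference. The other 56 had no entry to remove, so their values could not change. All values given below without clusters 4 and 10 were made in this way.

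The 3 genes taken as markers of the group were all higher, although they were chosen with these data known and are no independent check of it. Cxcl14 (chromosome 13, 56288643 to 56296551, minus strand, mm10, protein-coding) was found in 91.7% of cluster 1 cells against 38.9% of all others. Its listed values elsewhere were low, with 30.2% for cluster 6, 14.9% for cluster 8, 10.8% for cluster 11 and 7.0% for cluster 4. Clusters without an entry for Cxcl14 had a mean of 47.9%, from the solved shares, so the chemokine gene was also detected in many cells outside cluster 1.

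Mmp3 (chromosome 9, 7445822 to 7455975, plus strand) was found in 87.7% of cluster 1 cells against 42.6% of the rest. Cluster 3 came next with 76.2%, followed by cluster 9 with 52.7%, cluster 0 with 45.0% and cluster 6 with 32.7%. In cluster 11, where the fat cell genes Cd36 and Scd1 were detected in 99.8% and 100% of the cells, Mmp3 was detected in 17.8%. Since the depth per cell is not known for either cluster, such low shares could not be told from background.

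F3 (chromosome 3, 121723537 to 121735048, plus strand) separated cluster 1 from only some clusters. Its detection was 99.1% in cluster 1 and 72.4% in all other cells, but clusters 3, 0 and 7 had 96.4%, 95.7% and 94.4%. The difference of 26.7 percentage points went to 17.4 when cluster 4 and cluster 10 were taken out of the reference. Itgb1, an integrin subunit and the remaining gene by which the study recognised preadipocytes, had 98.6% in cluster 1, beside 98.8%, 99.0% and 99.6% in clusters 0, 9 and 5. The difference of Itgb1 from all other cells went from 14.0 to 5.83 percentage points without clusters 4 and 10. Mmp3 in cluster 1 lay 11.5 percentage points above the next listed cluster and F3 2.7 above it, while Itgb1 was below the highest.

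AP-1, a transcription factor made of FOS and JUN proteins, is a regulator that the study examined, so the start regions of Mmp3 and F3 were searched for its motif TGAGTCA and the reverse complement TGACTCA. Both genes hold it before their start site, and the window of Cxcl14 has no match. The stretches below are shown because they belong to 2 of these 3 marker genes. They are from RefSeq (GRCm38.p6, the assembly of mm10), are read 5′ to 3′ on the gene's own strand, and have the motif in capitals. The motif of Mmp3 begins 46 bases before the start site, and the stretch covers chr9:7445746-7445812. For F3 the motif begins 135 bases before it, in chr3:121723372-121723438.
Mmp3: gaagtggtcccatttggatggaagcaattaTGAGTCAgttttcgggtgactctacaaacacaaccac
F3: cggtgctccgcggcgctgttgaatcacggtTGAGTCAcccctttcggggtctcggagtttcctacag

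Over all higher genes the motif was about as frequent as in the genome. In a window of 250 bases before to 50 bases after the start, it was found for 16 of the 333 higher genes with a start region in the table, or 4.80%, and for 1396 of 27025 genes in all, or 5.17%. Among lower genes it was found for 3 of 112. Besides Mmp3 and F3, 10 higher genes held the motif before the start, namely Il6, Srpx2, Mylk, Ecm1, Entpd2, Prnp, Myl12a, Selenok, Sec61b and Laptm4a. A match of these letters is not evidence that the factor binds there.

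The largest difference of all belonged to Abi3bp (chromosome 16, 56477878 to 56690135, plus strand), which encodes a secreted matrix-binding protein. It was found in 90.3% of cluster 1 cells against 32.1% of the rest, and its highest value in another listed cluster was 35%, in cluster 2. The clusters without an entry for Abi3bp had a higher mean, 43.4%. Ccn3, a matricellular protein of the CCN family, was detected in 70.6% against 19.8%. In clusters 2, 4, 6 and 8 Ccn3 was detected in 0.9%, 0.5%, 0.7% and 0.5% of the cells, and in cluster 11 in 0.0%. Ccn3 was thus close to absent from the clusters in which Cd36 was common, whereas Abi3bp was still found in some of their cells.

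Several of the genes with the largest differences encode matrix or matrix-bound proteins. Mfap4, a protein of elastic microfibrils, was detected in 86.4% of cluster 1 against 33.9% elsewhere, and Podn, a small leucine-rich proteoglycan, in 76.4% against 26.7%. For Prelp, another proteoglycan of that family, the values were 76.5% and 34.3%, and for Ccn5, a CCN protein, 97.4% and 47.7%. The highest values in other listed clusters were 68.2% for Mfap4 in cluster 5 and 48.8% for Podn in cluster 3. For Prelp it was 71.8%, in cluster 9, and for Ccn5 86.3%, in cluster 7. Comp, the cartilage oligomeric matrix protein, was rarer, with 42.7% against 4.2%, and had an entry in only 2 other clusters, at 0.6% in cluster 2 and 0.1% in cluster 4. Comp was thus nearly absent from the other clusters in which it was listed.

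Other genes with large differences covered several functions. Timp3, a matrix-bound inhibitor of metalloproteinases, differed by 50.9 percentage points, C2, a complement component, by 46.3, and Cda, the enzyme cytidine deaminase, by 45.8. Lgi2, a secreted leucine-rich repeat protein, differed by 44.9, and Pcsk5, a protease that activates precursor proteins, by 42.7. Igfbp6, which binds insulin-like growth factors, differed by 40.7, the aggrecan-degrading protease Adamts5 by 40.2, the surface protein Thy1 by 40.2, the complement gene C4b by 39.5 and the membrane protein Emp3 by 39.0. All of these kept a difference of at least 10 percentage points when clusters 4 and 10 were taken out of the reference.

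**Figure D2:**
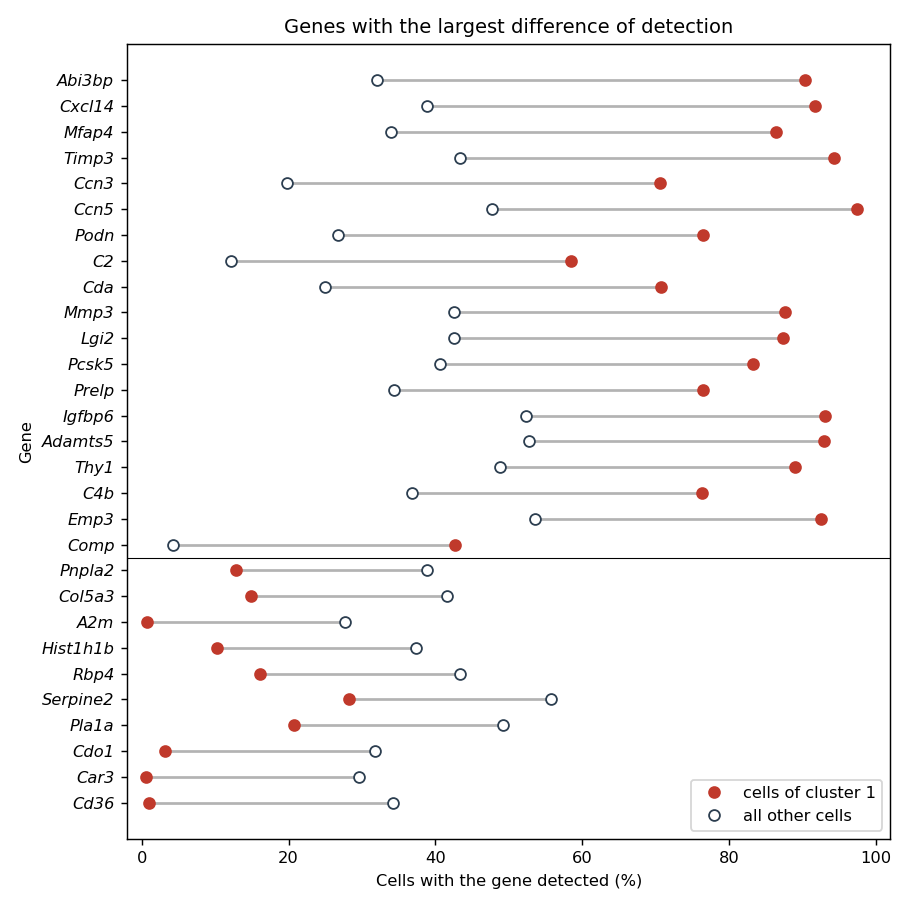
Percent of cells with the gene detected in cluster 1 (filled) and in all other cells (open) for 19 of the 20 genes with the largest positive difference and, below the line, the 10 with the largest negative one. Abi3bp spans 58.2 percentage points, and at the bottom Cd36 was detected in 1.0% of cluster 1 and 34.2% of the others.

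Some of these genes were shared with other stromal clusters. Thy1 was detected in 89.0% of cluster 1, 84.9% of cluster 0, 88.4% of cluster 5 and 87.1% of cluster 9, and Emp3 in 92.6%, 93.0%, 94.8% and 96.0% of the same clusters. Igfbp6 was detected in 93.1% of cluster 1, 90.3% of cluster 0, 90.9% of cluster 5 and 88.6% of cluster 9. C4b was detected in more cells of cluster 7 (84.7%) than of cluster 1 (76.3%), with 71.3% in cluster 3. Abi3bp, Cxcl14, Ccn3, C2 and Cda, in contrast, lay between 51.1 and 63.7 percentage points above every other cluster in which they had an entry. A gene without an entry in a cluster missed the authors' minimums there and has no value, so these margins hold for listed clusters only. The mean over the clusters without an entry was 35.9% for Ccn3, 29.5% for Cda and 17.4% for C2.

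**Figure D3:**
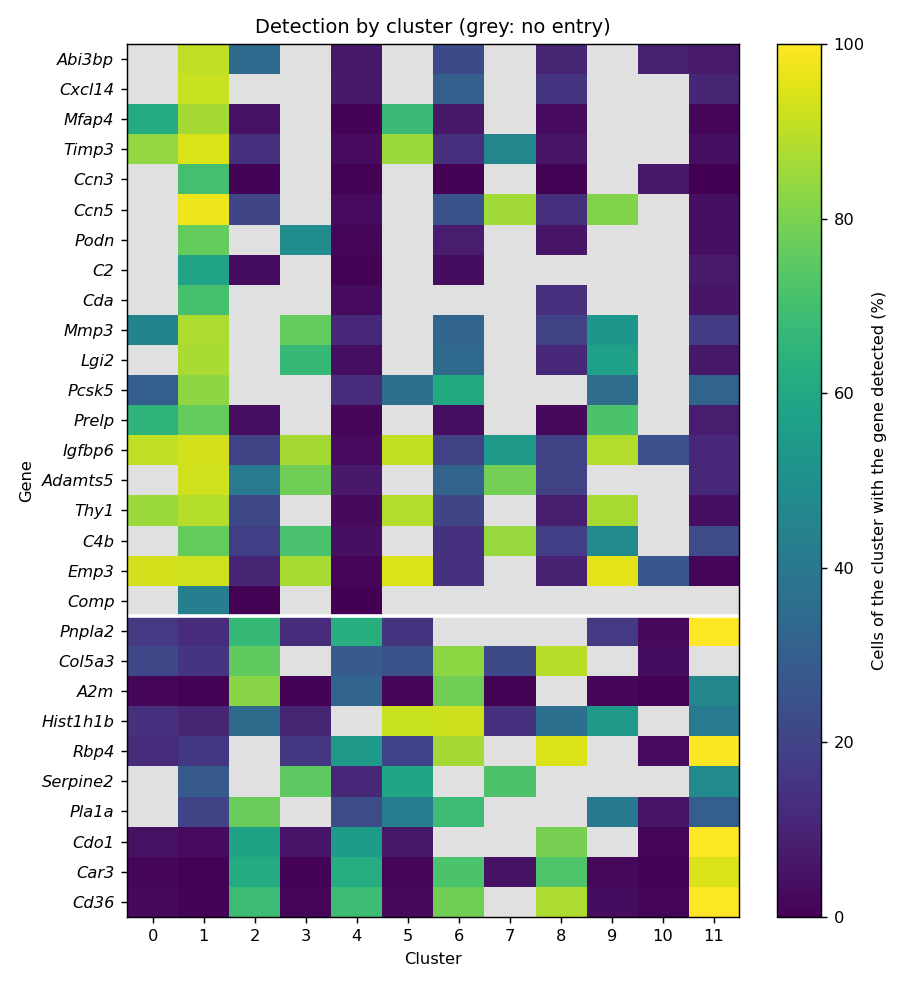
Percent of cells of each cluster (columns 0 to 11) in which the gene (rows) was detected, for 19 of the 20 genes with the largest positive and, below the white line, the 10 with the largest negative difference in cluster 1. Grey marks a cluster without an entry, and Cd36, Car3 and Cdo1 are dark in clusters 0, 1, 3 and 5 and bright in clusters 2, 4, 8 and 11.

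Of the 406 higher genes with an entry in at least 1 other cluster, 241 had their highest listed detection in cluster 1, and 145 did so by at least 5 percentage points. A further 24 genes were listed for cluster 1 and for no other, of which 23 were higher and 1, Rorb, was lower. The higher ones were detected in 17.2% to 64.6% of cluster 1, with a median of 31.8%, and the highest was Rasa3, at 64.6% against 41.2% elsewhere. Epha3, an ephrin receptor, was found in 45.6% of cluster 1 against 14.1% elsewhere, Ccbe1, a secreted factor of lymphatic growth, in 37.4% against 6.4%, and Chrdl1, a BMP antagonist, in 33.3% against 4.8%. Wnt5a, a WNT ligand, was detected in 34.4% against 13.6%, and Rspo3, an enhancer of WNT signals, in 24.7% against 9.2%. Pdgfrl and Pcolce2, which enhances procollagen processing, belonged to the same group, with 35.3% against 13.7% and 25.1% against 7.4%.

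Set directly beside single clusters, cluster 1 was closest in detection to clusters 0, 3 and 7. Of the 322 genes listed for both cluster 1 and cluster 0, 284 lay within 10 percentage points, 22 were above in cluster 1 and 16 below. With cluster 3, 231 of 273 shared genes lay within 10 percentage points, 35 above and 7 below, and with cluster 7 this held for 173 of 212, with 20 above and 19 below. The median differences were -0.50, 1.60 and 0.90 percentage points. Cluster 5 was further off, with 114 of 324 shared genes above cluster 1. Against cluster 8, by comparison, the median over 450 genes was 19.6 percentage points and 249 were above, and against cluster 11 it was 18.5 over 587 genes with 324 above. Genes enter these counts only if the authors listed them for both clusters.

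Chemokine and cytokine genes were higher where they were listed for cluster 1. Of the 21 genes in the list, 15 were in the table and 9 were listed for cluster 1, and all 9 were higher, with a median difference of 25.3 percentage points beside 16.0, and 58.8% higher, over all genes listed for the cluster. The monocyte chemokine Ccl7 was found in 81.1% of cluster 1 cells against 46.9% of the rest, and Ccl8 in 63.2% against 27.2%. In cluster 3 Ccl7 was at 67.2% and Ccl8 at 66.3%. The cytokine Il6 was detected in 47.5% against 17.4%, and Cxcl12, a chemokine of stromal cells, in 98.6% against 73.3%. Clusters 7 and 3 came near for Cxcl12, with 97.0% and 95.4%. Cxcl1, which attracts neutrophils, Cxcl16 and the alarmin Il33 were detected in 43.4%, 40.5% and 34.5% of cluster 1. Ccl2 was the smallest difference at 16.0 percentage points, and cluster 5, with 63.2%, had more cells with Ccl2 than cluster 1, with 54.1%. Csf1, also of this list, had no entry in cluster 1 and was detected in 93.7% of cluster 0.

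Genes that accompany F3 in stromal cells of fat were also higher. Of 12 genes in this list, 9 were in the table and 8 were listed for cluster 1, of which 7 were higher, beside 58.8% of all listed genes, with a median of 25.4 percentage points. Gdf10, a BMP-family ligand, was detected in 73.7% against 36.9%, Gas6, a ligand of TAM receptors, in 94.4% against 57.8%, and Cygb, the oxygen-binding cytoglobin, in 95.7% against 63.1%. Clec11a and the transcription factor Meox2 had an entry in cluster 1 alone, at 34.3% against 10.2% and 25.5% against 4.9%. The exception was Bgn, the proteoglycan biglycan, which was detected in 100% of cluster 1 and 92.3% of the others. Gdf10 was not specific to cluster 1, since cluster 6 reached 71.9% and cluster 2 reached 61.5%. Nor were Cygb, with 91.2% in cluster 3, and Gas6, with 90.3% in cluster 7. Mgp, also of this list, had no entry in cluster 1 and was detected in 84.2% of cluster 3.

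Of 20 surface and other markers of fat progenitors, 10 were in the table and 5 were listed for cluster 1, all higher, beside 58.8% of all listed genes. Beside Thy1 these were the tetraspanin Cd9 (87.4% against 49.1%), the growth factor receptor Pdgfrb (88.6% against 60.2%), the adhesion molecule Vcam1 (69.5% against 42.5%) and the hyaluronan receptor Cd44 (71.1% against 48.9%). Pdgfra and Ly6a had entries in other clusters but none in cluster 1. Vcam1 reached at most 14.4% in the 3 other clusters that list it but had a mean of 51.1% over those that do not, and Cd44 was detected in more cells of clusters 0, 5 and 9, with 74.2%, 83.1% and 81.0%.

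Proteases and their inhibitors followed the same direction. Of 28 genes, 20 were in the table and 15 were listed for cluster 1, of which 12 were higher and 1 was lower, with a median of 24.2 percentage points. Over all listed genes 58.8% were higher and 21.0% lower. The metalloproteinase gene Mmp23 was detected in 73.0% against 38.2%, the collagen-processing protease Adamts2 in 92.5% against 62.4% and Ctsk, the lysosomal cathepsin K, in 86.6% against 54.2%. Mmp11 was detected in 58.8% against 34.6%, but cluster 3 was higher, with 75.6%. Ctsk was also detected in more cells of cluster 3, at 88.5%, and Mmp23 in more cells of cluster 9, at 74.4%. Adamts2 reached 87.4% in cluster 7. Inhibitors were higher together with proteases, Timp2 with 99.5% against 73.3% and Timp3 with 94.3% against 43.4%. In cluster 5 Timp2 reached 98.9% and Timp3 84.8%. Serpine2, an inhibitor of serine proteases, was the exception, at 28.3% in cluster 1 against 55.8% elsewhere and 75.1% in cluster 3.

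Collagen genes differed little in detection, and several were found in nearly every cell. Of 24 collagen and collagen-processing genes, all in the table, 13 were listed for cluster 1, of which 4 were higher and 1 was lower, with a median of 5.0 percentage points, so that the share of higher genes was under the 58.8% of all listed genes. Col1a1, Col1a2 and Col3a1 were found in 100% of cluster 1 cells against 95.5%, 93.5% and 98.4% of the rest. Col14a1, a collagen found on fibril surfaces, differed most, at 39.8% against 11.8%, with 0.1% in clusters 4 and 8 and 0.0% in cluster 11. Without clusters 4 and 10 in the reference, Col14a1 was the 1 collagen gene that remained higher, with 26.5 percentage points. Col5a3, one of the study's markers of differentiating cells, was the lower gene, at 14.9% against 41.6%.

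Genes of other matrix proteins ranged from rare to saturated. Of 33 genes, 29 were in the table and 21 were listed for cluster 1, of which 12 were higher and 1 was lower, with a median of 15.2 percentage points, which went to 6.88 without clusters 4 and 10. Their share of higher genes was close to the 58.8% of all listed genes. Mfap5 and Mfap2, which lie on microfibrils, were detected in 98.8% against 68.3% and 64.6% against 38.8%. Cluster 3 had similar values for both, 96.5% and 64.6%, and cluster 7 had 65.2% for Mfap2. The proteoglycan Fmod was detected in 37.3% against 11% and elastin, Eln, in 25.5% against 8.1%. In the other clusters that list them, Fmod reached at most 1.6% and Eln 0.4%. Fn1, Fbln2 and Sparc were detected in at least 99.9% of cluster 1 and at least 93.0% of the others. The large proteoglycan Vcan was the lower gene, with 52.5% against 67.8%.

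Immediate early genes, which respond within minutes to stimulation, were all higher among those listed for cluster 1. Of 18 genes, 16 were in the table and 11 were listed for cluster 1, and all 11 were higher, beside 58.8% of all listed genes, with a median of 23.2 percentage points. Fos was found in 94.2% of cluster 1 cells against 63.8% of the rest, Fosb in 66.3% against 41.4%, and Ier3 in 86.3% against 52.9%. Nr4a1, a nuclear receptor, was detected in 61.8% against 37.0%, and Klf4 in 69.0% against 40.9%. Cluster 7 came near for Fos, with 89.2%, and Fosb, with 62.5%, and cluster 9 had 70.7% for Klf4. Ier3 reached at most 47.0% in the 5 other clusters that list it but had a mean of 69.0% over those that do not. The only other cluster with an entry for Nr4a1 was cluster 11, at 12.4%, so its level in the remaining clusters is not given. Jun and Fosl2, which encode JUN and FRA2, had no entry in cluster 1. Of the 9 with an entry in cluster 4 or 10, 6 stayed higher without these clusters, and Egr1, Junb and Ier2 had 5.34, 5.55 and 6.66 percentage points.

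Contractile and cytoskeletal genes were higher than in all other cells but not than in cluster 0, which exceeded cluster 1 for every listed gene but Cald1, Actg1 and Vim. Of 22 genes, all in the table, 16 were listed for cluster 1 and 14 were higher, beside 58.8% of all listed genes, with a median of 23.3 percentage points that went to 15.5 without clusters 4 and 10. Tagln and Acta2, genes of smooth muscle and myofibroblasts, were detected in 95.0% and 93.1% of cluster 1, against 97.7% and 97.0% of cluster 0 and 84.4% and 81.4% of cluster 3. Myl9, a myosin light chain, was detected in 72.3% of cluster 1, 89.0% of cluster 0, 42.6% of cluster 3 and 1.9% of cluster 2. In detection of Myl9, Cnn2 and Tpm2 cluster 1 thus lay between cluster 0 and cluster 3, with Cnn2 at 80.8%, 92.3% and 53.2% and Tpm2 at 88.6%, 95.6% and 68.4%.

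Complement and acute phase genes included both higher and lower ones. Of 21 genes, 12 were in the table and 10 were listed for cluster 1, with 6 higher, 2 lower and a median of 21.0 percentage points. These shares were close to the 58.8% and 21.0% of all listed genes. Genes of the classical complement pathway were higher, with C1s1 at 75.1% against 45.5%, C1ra at 54.2% against 26.0% and the inhibitor Serping1 at 99.1% against 65.2%, and so was C3, the central component, at 49.6% against 23.9%. Cluster 7 came near for C1s1, with 73.8%, and for Serping1, with 97.4%. In cluster 3 C1s1 was at 66.0% and C1ra at 41.9%. The acute phase genes A2m and Saa3 were lower in cluster 1, with 0.7% against 27.7% and 30.7% against 47.0%. Serpina3n, the other marker by which the study recognised differentiating cells, had 64.1% against 54.5%, above cluster 0 at 30.7% and below cluster 2 at 91.3%.

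The remaining lists were short. All 5 genes listed among the 8 of the IGF list in the table were higher, beside 58.8% of all listed genes. Their median of 16.2 percentage points was close to the 16.0 over all listed genes. Igfbp4 was detected in 96.5% of cluster 1 against 63.4% elsewhere and 58.3% in cluster 0. Of the 24 genes of TGF-beta and WNT signalling in the table, 8 were listed, of which 5 were higher and 1 was lower, close to the shares of all listed genes. Sfrp1, a secreted WNT inhibitor, was detected in 99.4% against 74.5% and Ccn4 in 82.0% against 44.5%. Cluster 7 reached 91.8% for Sfrp1. Ccn4 was detected in more cells of clusters 0 and 5, at 84.0% and 87.9%, and in fewer of cluster 7, at 45.0%. The activin antagonist Fst was lower in cluster 1, with 38.7% against 52.6%. Of the antioxidant list, 25 genes were in the table, 10 were listed and 6 were higher, a share close to that of all listed genes, led by the secreted superoxide dismutase Sod3 with 64.4% against 27.9%. Of 11 interferon response genes in the table, 4 were listed and all 4 were higher, beside 58.8% of all listed genes. Among them was Bst2, with 78.6% against 52.3%, and with 77.6%, 75.1% and 73.6% in clusters 7, 0 and 3. Of the 3 with an entry in cluster 4 or 10, 2 stayed higher without these clusters, the exception being B2m. Of 7 listed endoplasmic reticulum genes 4 were higher, again close to the 58.8% of all listed genes, and 1, Herpud1, stayed so without clusters 4 and 10. From the prostaglandin and steroid list Fkbp5, a gene induced by glucocorticoids, was lower, at 12.6% against 36.3%.

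**Figure D4:**
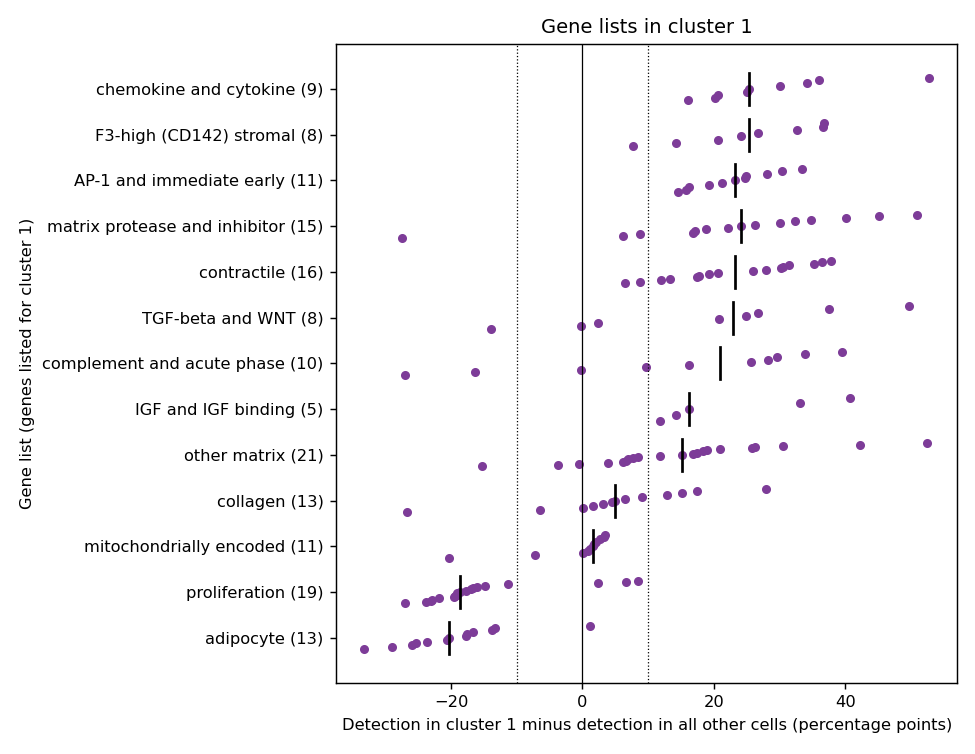
Difference of detection between cluster 1 and all other cells, in percentage points, for the genes of 13 lists that have an entry in cluster 1 (number in brackets). Points are genes, thick bars are medians and dotted lines mark 10 percentage points either way, and the medians run from 25.4 for the genes that accompany F3 to -20.4 for adipocyte genes.

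Fat cell genes were lower, with the most negative median of the lists that had more than 2 genes in cluster 1. All 22 genes of the adipocyte list were in the table and 13 were listed for cluster 1, of which 12 were lower and 0 higher, beside 21.0% lower over all listed genes, with a median of -20.4 percentage points. The fatty acid transporter Cd36 was found in 1.0% of cluster 1 cells against 34.2% of the rest, and the carbonic anhydrase Car3 in 0.6% against 29.6%. The adipokine Adipoq, the lipid droplet coat gene Plin1 and the hormone-sensitive lipase Lipe were at 1.2%, 0.6% and 2.5%, against 92.1%, 99.8% and 99.5% in cluster 11. These 3 genes were also rare in clusters 0, 3 and 5. There Adipoq was at 2.2%, 1.9% and 2.7%, Plin1 at 1.3%, 1.6% and 1.9% and Lipe at 2.9%, 2.3% and 2.6%. Pparg, the master regulator of fat cell formation, was detected in 4.0% of cluster 1 against 17.8%. Fabp4 and Scd1 were less extreme, with 53.3% against 77.0% and 43.4% against 68.7%. Lpl, lipoprotein lipase, was the exception at 93.1% against 92.0%, so it was common in cluster 1 as elsewhere.

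Some other genes among the 10 with the largest negative differences had a similar pattern over clusters. Cdo1, cysteine dioxygenase, was detected in 3.1% of cluster 1, 4.4% of cluster 0, 5.6% of cluster 3 and 100% of cluster 11, and Rbp4, the retinol carrier of plasma, in 16.1%, 12%, 16.1% and 99.6% of these. Pnpla2, the lipase that starts fat breakdown and a member of the adipocyte list, was at 12.8% in cluster 1 and 100% in cluster 11. Pla1a, a phospholipase, differed from these genes, being at 20.7% in cluster 1 against 77.2% in cluster 2 and 30.4% in cluster 11. So did A2m, at 82.4% in cluster 2 and 46.0% in cluster 11, and Serpine2, at 75.1% in cluster 3 and 48.0% in cluster 11. Hist1h1b was at 92.5% in cluster 6 and 41.2% in cluster 11. The imprinted gene Peg3, with a smaller difference, was detected in 9.6% against 30.2%. Of the 5 thermogenic genes in the table, 1 was listed for cluster 1, Cox7a1, and it was lower by 11.5 percentage points.

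Genes of cell division were lower as well. All 22 were in the table and 19 were listed for cluster 1, of which 16 were lower and 0 higher, beside 21.0% lower over all listed genes, with a median of -18.7 percentage points. Mki67, which marks dividing cells, was found in 3.2% of cluster 1 cells against 26.2% of the rest, Pclaf, a replication factor, in 3.4% against 27.3%, and Cenpf, a mitotic protein, in 2.7% against 22.2%. The linker histone Hist1h1b was at 10.2% in cluster 1, beside 14.4% and 10.3% in clusters 0 and 3 and 91.5% and 92.5% in clusters 5 and 6. Tubb5, H2afz and Tuba1b, which non-dividing cells also use, lay within 10 percentage points.

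Markers of other cell types gave almost nothing, but the study had removed immune, glial and endothelial cells before it clustered the rest. The immune and glial lists had 0 genes in the table. The endothelial list had 1, Eng, and the mesothelial list had 1, Krt19, and neither was listed for cluster 1. Of the mural cell list, Pdgfrb alone was listed, which the progenitor list also holds. Of 11 listed mitochondrially encoded transcripts, 10 lay within 10 percentage points and mt-Nd6 was lower, at 33.3% against 53.7%. The difference of mt-Atp8, at 61.8% against 69.0%, went to -12.65 without clusters 4 and 10. Of 76 ribosomal protein genes in the table, 1 was listed for cluster 1. Hmgn1 and Hmgn2, the genes deleted in DKO cells, and the other 2 HMGN genes in the table had no entry in cluster 1, so the table gives no detection for them there.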

How the data were processed

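Per the study's methods, the authors captured single cells with droplet 3′ chemistry, mapped reads to mm10 with Cell Ranger 6.0.0 (the submitters' processing notes), aggregated the 8 captures at equal read depth, removed immune, glial and endothelial cells, clustered the rest in Seurat and compared each cluster with all other cells. The deposited table holds, for each gene and cluster, a fraction of cells in which the gene was seen within the cluster and the same fraction for the rest, with 3 decimals and printed here as percents. Its columns of fold changes and p-values hold the authors' comparisons and were not used, although they decided which genes are listed. The larger fraction of an entry was never under 10.1%. A missing entry is not 0. No removal of doublets is described, and none was possible without single cells. It has 0 columns of single samples. Depth and cell numbers are unknown, so no interval is given.

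The genes of cluster 1, the gene lists and the alternatives were chosen with earlier results of these data known. Named were the 20 genes with the largest positive and the 10 with the largest negative difference, Cxcl14, Mmp3, F3, Itgb1, Hmgn1, Hmgn2 and list members, of which 1 gene is not reported here. Genes listed for cluster 1 alone or holding the motif were named after their values were seen. Cluster shares came from least squares over the 10 genes listed in every cluster, a step tested on simulated data. Gene symbols turned into dates (35 entries, 0 in cluster 1) were left out. Start regions were from RefSeq, 1 per gene, and gene positions from GENCODE M21 (GRCm38). The work was done in Python 3.11.15 with numpy 2.4.6, pandas 2.3.3 and scipy 1.17.1, and plots in matplotlib 3.10.9.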

Additional observations from a re-analysis of the deposited data

How the results depend on the processing

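No paired analysis was possible because all 8 samples are pooled in the deposited values, and nothing was tested over samples. For the same reason no replicate could be left out. At a difference of 20 percentage points, 252 genes were higher and 29 lower in cluster 1, fewer by construction. At 5 percentage points 7 collagen and 7 endoplasmic reticulum genes were higher, and without clusters 4 and 10 in the reference each list had 1. Genes with their highest listed detection in cluster 1 numbered 145 when a margin of 5 percentage points was asked for. Higher and lower genes numbered 487 and 149 by a difference of log odds of 0.5, 423 and 153 among genes detected in 5% to 90% of other cells, and 334 and 170 without clusters 4 and 10, where 56 of the 334 had no entry to remove and could not change. The share of cluster 1 was 14.1% also when solved from all genes listed in at least 2 clusters. Added after the data were seen, a motif search of the 250 bases before the start alone gave 3.60% of higher and 4.43% of all genes. Differences for the genes detected in nearly all cells cannot be seen with this measure, and the effect of depth was not measured.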
